A study of Mus musculus with 15 samples.

Results

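Genes for protein folding, quality control and entry into the endoplasmic reticulum (ER) were followed across 5 sorted populations of mouse OT-I CD8 T cells measured by RNA-seq. The group was a list of 32 gene symbols, and all 32 were found among the 23284 entries of the expression table. By role they were 9 chaperones and co-chaperones, 2 lectin chaperones, 7 oxidoreductases and prolyl isomerases, 7 genes of ER-associated degradation, 5 genes of the translocon and 2 transcription factors. The list was not chosen by a threshold on these values, but its members were chosen with earlier results of these data known. Counts of members set beside the share of all genes are therefore a description.

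OT-I mice carry a transgenic T cell receptor that recognises the ovalbumin peptide SIINFEKL. Their CD8 T cells, enriched by negative selection, were stimulated with dendritic cells that had been grown from bone marrow and loaded with that peptide, and were then cultured for 14 days. The medium held either IL-2, which drives the growth of activated T cells, or a cocktail. The cocktail held TWS119, an inhibitor of glycogen synthase kinase, the glycolysis inhibitor 2-deoxyglucose, and the cytokines IL-21 and IL-7. IL-2 cells were sorted as CD44+CD62L-. Cocktail cells were sorted as CD44+CD62L-, CD44+CD62L+ and CD44loCD62L+, where CD44 marks antigen-experienced cells and CD62L is a lymph node homing receptor. Naive OT-I cells were taken at day 0, with a gate given as CD44loCD62L+ in the labels and CD44-CD62L+ in the design text. Every population carried the same transgene, and the age of the mice is not given in the sources used here. The 3 libraries of a population are technical replicates by the design text, so the p-values below measure the spread between libraries of one RNA and not that between mice or cultures. Every comparison with naive cells joins stimulation, culture and medium, which cannot be told apart. The gate differs as well, except that cocktail CD44loCD62L+ and naive cells share a gate by the labels.

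Proteins that enter the secretory pathway are threaded through the translocon into the ER, where chaperones, glycan-binding lectins and disulfide-forming enzymes fold them. Those that fail are sent back to the cytosol for degradation. When unfolded proteins accumulate, the sensors IRE1, PERK and ATF6 start the unfolded protein response: IRE1 splices the mRNA of XBP1, ATF6 is cut free from the membrane, and PERK slows translation and favours ATF4. XBP1 and ATF6 then raise the genes of folding, translocation and degradation. The response is best known from antibody-secreting plasma cells, and CD8 effector T cells, which make cytokines and granzymes, also use it. Gene levels do not show whether XBP1 was spliced or ATF6 cleaved.

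A sequence that ties many of these genes together is the ER stress response element, CCAAT and CCACG with 9 bases of any kind between them, to which NF-Y binds at the CCAAT end and ATF6 or XBP1 at the CCACG end. It was searched on both strands of RefSeq promoter windows of GRCm38.p6, which run from 250 bases before to 50 bases after each start. Windows were found for 26 of the 32 genes, and not for Hyou1, Manf, Derl1, Sec61a1, Ssr2 and Atf6. The element was present in 9 of these 26 genes, where 37 of all 27025 genes with a window had it (0.137%). Counted by window, it was in 39 of all 32851 (0.119%). The matches are shown because folding, lectin and degradation genes share them. They are written 5′ to 3′ on the strand that carries the motif, with the bases fixed by the motif in capitals and the spacer in lower case.
Hspa5, chr2:34772025-34772043, plus strand: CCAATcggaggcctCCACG
Hsp90b1, chr10:86705638-86705656, minus strand: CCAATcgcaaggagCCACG
Hsp90b1, chr10:86705533-86705551, plus strand: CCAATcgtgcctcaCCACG
Creld2, chr15:88819520-88819538, minus strand: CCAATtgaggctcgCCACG
Dnajc3, chr14:118937827-118937845, plus strand: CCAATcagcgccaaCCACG
Calr, chr8:84847075-84847093, plus strand: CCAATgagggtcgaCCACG
Canx, chr11:50325800-50325818, minus strand: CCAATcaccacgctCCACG
Pdia6, chr12:17266491-17266509, plus strand: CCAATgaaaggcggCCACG
Syvn1, chr19:6046532-6046550, plus strand: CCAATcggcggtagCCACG
Derl3, chr10:75893242-75893260, minus strand: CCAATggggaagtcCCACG
The Hsp90b1 window held both of its matches on opposite strands. A match describes letters in a window and is not a measurement of binding.

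Other motifs of the response were rarer or less particular. ATTGG and CCACG with 1 base between them, another form of the element, was in the windows of Dnajb11 and Herpud1. It was in 0.0444% of all genes with a window and 0.0365% of all windows. TGACGTGG, a motif of XBP1, was in none of the 26 genes, in 0.714% of all genes with a window and in 0.676% of all windows. CCACG alone is contained in the first 2 motifs and, reversed, in TGACGTGG. It was in 23 of the 26 genes, in 35.5% of all genes with a window and in 32.8% of all windows. Of the stretches before the start, those of Creld2 and Syvn1 are given in full because the genes behaved differently in the cells described below, with the element in capitals and, in Creld2, on the opposite strand.
Creld2, chr15:88819396-88819645, plus strand: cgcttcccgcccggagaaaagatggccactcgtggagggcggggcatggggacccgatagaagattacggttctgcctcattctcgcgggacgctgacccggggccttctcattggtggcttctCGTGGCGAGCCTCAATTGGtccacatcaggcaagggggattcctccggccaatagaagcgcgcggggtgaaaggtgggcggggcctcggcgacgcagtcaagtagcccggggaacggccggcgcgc
Syvn1, chr19:6046326-6046575, plus strand: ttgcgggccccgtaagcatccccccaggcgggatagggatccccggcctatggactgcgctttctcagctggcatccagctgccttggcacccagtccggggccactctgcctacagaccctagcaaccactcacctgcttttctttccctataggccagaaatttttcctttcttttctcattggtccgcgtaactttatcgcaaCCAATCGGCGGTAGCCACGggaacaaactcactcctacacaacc
Each run is the 250 bases before the RefSeq start.

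Levels are in FPKM, fragments scaled to transcript length and library size, as the authors deposited them, so that genes of different length can be set side by side. A gene entered the test when its mean reached 1 FPKM in any population, which kept 11242 genes and 31 of the 32 members. Derl3, a degradation factor of secretory cells, was at 0.0730 to 0.577 FPKM across the 15 libraries and was not tested. Fold changes are differences of log2(FPKM + 1), which understates the change of low genes, and were fitted with limma over all 15 libraries. A gene was said to rise or fall when its p, adjusted by Benjamini and Hochberg over all genes tested, was under 0.05 and the change was at least 2-fold. A value given as a fold change ± its SE is on that log2 scale, from 3 against 3 libraries, with a limma adjusted p under 0.05. The libraries had FPKM sums of 669341 to 781949 and 10006 to 10473 genes at 1 FPKM or more. Read counts are not given, and relative depth, estimated from the steps between low values, ran from 1.00 to 1.26 times that of a naive library, with the highest values in cocktail CD44loCD62L+.

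All 7 CD8 T cell markers were present at 1 FPKM or more in every population, but their levels differed too: Cd8b1 was at a mean of 1059 FPKM in naive and 263 in IL-2, and Cd8a at 465 and 218. Thy1 alone of the 7 had a higher mean in IL-2, at 618 in naive and 785 in IL-2, and Cd3g was nearly level, at 649 and 642. Markers of other cells differed between the groups compared. The summed level of 11 B and plasma cell markers was 49.0 to 50.6 FPKM in naive, 34.3 to 35.1 in IL-2 and 2.41 to 3.27 in the cocktail libraries, with 8, 3 and 1 of the 11 at 1 FPKM or more. In IL-2 most of the sum was Igj, the joining chain of antibodies, at a mean of 26.0 FPKM, while Ms4a1 and Pax5 were listed at 0 and Sdc1 was at 1.99. The sum of 16 dendritic cell and macrophage markers was 117 to 122 FPKM in naive, 12.3 to 12.8 in IL-2 and 49.8 to 59.1 in the cocktail libraries, where Cd209a and Clec9a were listed at 0. The sum of 9 erythroid, platelet and neutrophil markers was 24.5 to 28.5 FPKM in naive, 0.129 to 0.366 in IL-2 and 1.49 to 5.39 in the cocktail libraries. Most of it in naive was the neutrophil pair S100a8 and S100a9, at means of 12.7 and 14.2 FPKM, against 0.0611 and 0.0398 in IL-2. Single markers could go against the sum of their list. Of 9 dendritic cell and macrophage markers tested, 2 were at least 1.5-fold higher and 6 lower in IL-2 against naive by limma. The higher ones were Xcr1, at means of 0.429 FPKM in naive and 5.65 in IL-2, and Itgax, at 0.402 and 1.56. Lyz2 was at a mean of 8.22 FPKM in naive, 0.427 in IL-2 and 21.3 in cocktail CD44+CD62L-. The part of such cells in the results that follow was not tested. In these bulk samples, fewer cells of a type and less RNA per cell cannot be told apart.

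**Figure D1:**
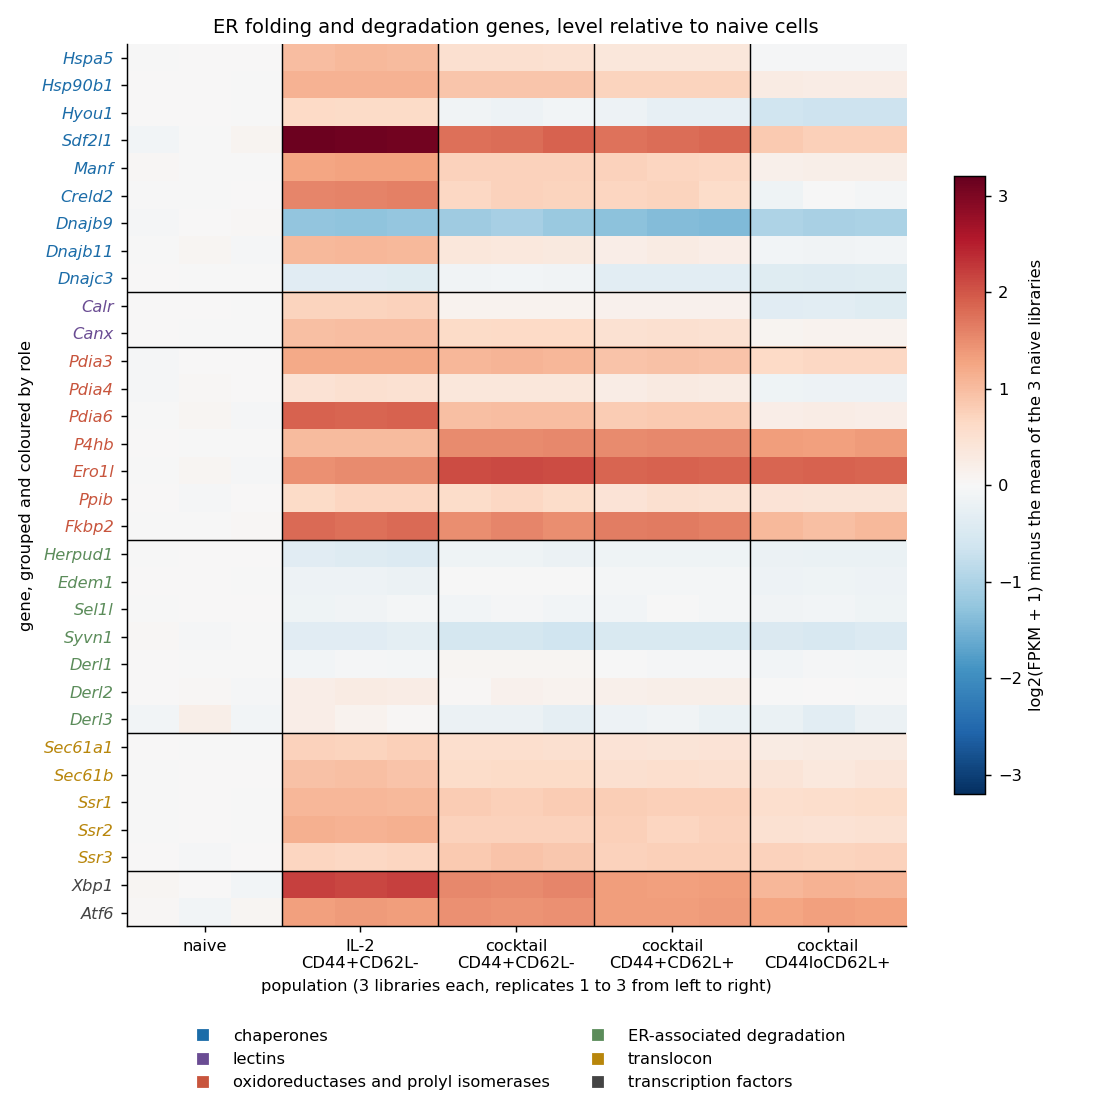
Each cell of the map is 1 library (columns, 3 per population) and 1 of the 32 genes (rows, grouped and coloured by role), coloured by log2(FPKM + 1) minus the mean of the naive libraries. The IL-2 columns are the reddest for Sdf2l1, Xbp1 and Pdia6, the degradation genes stay pale in all populations, and Dnajb9 is blue in every cultured population.

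The IL-2 population had the highest levels of this gene group. Summed over the 32 genes, the level was 2028 ± 7.1 FPKM (SD, n = 3) in naive, 3868 ± 16 in IL-2, 3174 ± 16 in cocktail CD44+CD62L-, 2988 ± 14 in cocktail CD44+CD62L+ and 2449 ± 4.6 in cocktail CD44loCD62L+. Of the 31 genes tested, 20 had their highest mean in IL-2, as had 33.2% of all genes tested. In 16 of the 31 the means were ordered from IL-2 through cocktail CD44+CD62L- and CD44+CD62L+ to CD44loCD62L+, an order that 14.7% of all genes tested shared. Naive cells were lowest for 17 and highest for 6 of the 31, where naive was lowest for 37.2% and highest for 37.4% of all genes tested. Cocktail CD44loCD62L+ cells were lowest for 10 and highest for 0 of the 31, against 14.6% and 13.7% of all genes tested.

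In IL-2 cells against naive cells, 15 of the 31 genes rose and 1 fell, where 17.6% of all genes tested rose and 13.7% fell. At least 1.5-fold higher with an adjusted p under 0.05 were 22 of the 31, against 28.3% of all genes, and 1 was lower, against 25.3%. The median log2 fold change of the 31 was 0.98, beside 0.02 for all genes tested. Several of the calls lay close to the 2-fold minimum: with quantile normalization 10 members were called in place of 16 and the median was 0.70, and with a pseudocount of 5 FPKM 10 were called. Quantile normalization took Hspa5, Hsp90b1, Dnajb11, Pdia3, P4hb and Ssr2 under 2-fold, and the pseudocount Hspa5, Dnajb11, Dnajb9, P4hb, Ssr1 and Atf6.

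Of the 9 chaperones, 6 rose and 1 fell in IL-2 against naive. Hspa5 was at 159, 161 and 161 FPKM in the naive libraries, 321, 327 and 325 in IL-2, 228, 229 and 225 in cocktail CD44+CD62L-, 205, 204 and 206 in cocktail CD44+CD62L+ and 155, 155 and 155 in cocktail CD44loCD62L+. Hspa5 encodes BiP, the ER Hsp70 that binds unfolded chains and holds the sensors inactive (chr2:34771970-34777547, plus strand, in the GENCODE annotation of GRCm38). The RefSeq start used for its promoter window lies further in, so the element shown above is before that start but inside this GENCODE span. The libraries of the 5 populations did not overlap, and IL-2 stood highest while cocktail CD44loCD62L+ stood just under naive. Its log2 fold change in IL-2 against naive was 1.01 ± 0.0086 (SE, n = 3 and 3, limma adjusted p = 6.5e-19), only just past the 2-fold minimum.

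Hsp90b1 was at 172, 173 and 169.9 FPKM in the naive libraries, 373, 374 and 373 in IL-2, 316, 317 and 319 in cocktail CD44+CD62L-, 281, 284 and 283 in cocktail CD44+CD62L+ and 205, 202 and 202 in cocktail CD44loCD62L+. Hsp90b1 is GRP94, the ER form of Hsp90, needed for integrins and Toll-like receptors. It was highest in IL-2 and lowest in naive, with no overlap between any of the 5 populations. In IL-2 against naive it rose by 1.12 ± 0.0083 (log2, SE). Hyou1, a nucleotide exchange factor for BiP, was ordered differently, at 46.8 ± 0.71 FPKM (SD, n = 3) in IL-2, 30.1 ± 0.38 FPKM in naive and 18.6 ± 0.22 FPKM in cocktail CD44loCD62L+.

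Sdf2l1 had the widest range of the tested members. It encodes a partner of the BiP co-chaperone Dnajb11 (chr16:17130138-17132383, minus strand). Sdf2l1 was at 9.85, 10.4 and 11.1 FPKM in the naive libraries, 99.5, 99.0 and 97.1 in IL-2, 37.8, 38.6 and 41.3 in cocktail CD44+CD62L-, 37.4, 38.6 and 39.9 in cocktail CD44+CD62L+ and 19.6, 18.3 and 18.3 in cocktail CD44loCD62L+. IL-2 was above every other library and naive below every other, while the cocktail CD44+CD62L- and CD44+CD62L+ libraries overlapped. In IL-2 against naive its log2 fold change was 3.12 ± 0.042 (SE, n = 3 and 3, limma adjusted p = 8.3e-17), with mean FPKM 9.41 times as high.

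Smaller folding factors moved the same way. Creld2 was at 17.9, 17.9 and 18.2 FPKM in the naive libraries, 54.6, 56.0 and 56.7 in IL-2, 29.1, 30.6 and 29.8 in cocktail CD44+CD62L-, 29.7, 30.0 and 27.6 in cocktail CD44+CD62L+ and 16.3, 17.7 and 17.3 in cocktail CD44loCD62L+. Creld2, an ER protein with disulfide-interchange activity, was high in IL-2 alone, middling in both CD44+ cocktail populations and at similar levels in naive and cocktail CD44loCD62L+ cells. Its log2 fold change in IL-2 against naive was 1.58 ± 0.034. Manf, a secreted ER stress factor that binds BiP, was at 27.9 ± 0.78 FPKM (SD, n = 3) in naive and 68.6 ± 0.61 FPKM in IL-2, a change of 1.27 ± 0.021. Dnajb11, an Hsp40 that delivers clients to BiP, was at 47.9 and 100.1 FPKM in these populations and rose by 1.048 ± 0.022.

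The other Hsp40 genes did not follow. Dnajb9, which encodes ERdj4, a repressor of IRE1 and a helper of degradation, was the one member called lower (chr12:44205559-44210326, minus strand). Dnajb9 was at 15.3, 16.0 and 16.2 FPKM in the naive libraries, 5.997, 5.85 and 6.14 in IL-2, 6.72, 7.09 and 6.42 in cocktail CD44+CD62L-, 5.81, 5.5 and 5.29 in cocktail CD44+CD62L+ and 7.52, 7.26 and 7.38 in cocktail CD44loCD62L+. Naive libraries were above all the cultured libraries, by more than 2-fold in mean FPKM against each population. Its log2 fold change in IL-2 against naive was -1.27 ± 0.036 (SE, n = 3 and 3, limma adjusted p = 2.7e-13). Dnajc3, the PERK inhibitor p58IPK, was at 44.4 ± 0.37 FPKM in naive and 34.2 ± 0.14 FPKM in IL-2, a log2 difference of -0.37 ± 0.012 that did not reach 2-fold.

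**Figure D2:**
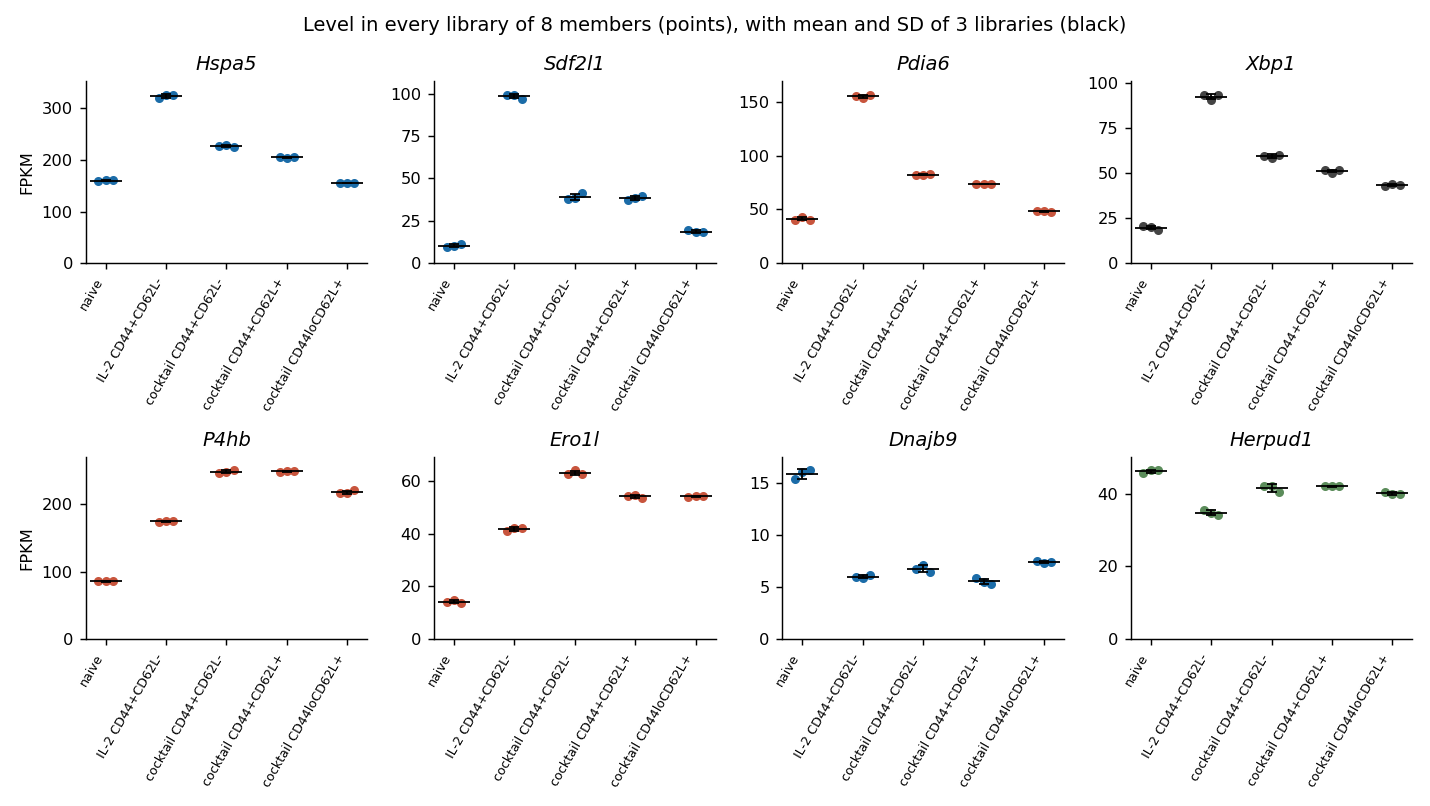
Points are the FPKM of the 3 libraries of each population for 8 genes, on axes that start at 0, and black bars are the mean and SD (n = 3). Hspa5, Sdf2l1, Pdia6 and Xbp1 are highest in IL-2, P4hb and Ero1l are highest in cocktail populations, and Dnajb9 and Herpud1 are highest in naive cells.

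The lectin chaperones calnexin and calreticulin hold glycoproteins, among them MHC class I heavy chains, while they fold. Calr was at 298, 299 and 294 FPKM in the naive libraries, 483, 487 and 493 in IL-2, 319, 320.4 and 323 in cocktail CD44+CD62L-, 326, 326 and 324 in cocktail CD44+CD62L+ and 230.1, 234 and 229 in cocktail CD44loCD62L+. Canx was at 71.6, 71.1 and 71.3 FPKM in the naive libraries, 140.1, 143 and 141 in IL-2, 110.2, 112 and 112 in cocktail CD44+CD62L-, 100.7, 102 and 100.5 in cocktail CD44+CD62L+ and 76.2, 76.9 and 77.6 in cocktail CD44loCD62L+. Both were highest in IL-2, but Calr was lowest in cocktail CD44loCD62L+ and Canx in naive. In IL-2 against naive the log2 fold change was 0.72 ± 0.010 for Calr and 0.98 ± 0.010 for Canx, with adjusted p under 0.05 and under the 2-fold minimum.

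The oxidoreductases and prolyl isomerases, which make disulfide bonds and turn proline bonds, rose in 5 of 7 genes in IL-2 against naive. Pdia6 was at 40.6, 43.0 and 40.2 FPKM in the naive libraries, 155, 154 and 157 in IL-2, 81.7, 82.2 and 83.0 in cocktail CD44+CD62L-, 73.4, 74.0 and 73.9 in cocktail CD44+CD62L+ and 48.4, 49.0 and 47.7 in cocktail CD44loCD62L+. Pdia6, a disulfide isomerase, was highest in IL-2, with cocktail CD44loCD62L+ only slightly above naive. Its log2 fold change in IL-2 against naive was 1.88 ± 0.020 (SE, n = 3 and 3, limma adjusted p = 7.6e-18). Pdia3, the isomerase ERp57 of the lectin cycle and the MHC class I loading complex, rose by 1.21 ± 0.013, from 149 ± 2.6 FPKM to 346 ± 2.0 FPKM.

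Other enzymes of this role were highest in the cocktail populations. Ero1l was at 13.9, 14.8 and 13.7 FPKM in the naive libraries, 41.1, 42.3 and 42.1 in IL-2, 62.8, 64.3 and 62.9 in cocktail CD44+CD62L-, 54.6, 54.6 and 53.7 in cocktail CD44+CD62L+ and 54.1, 54.6 and 54.4 in cocktail CD44loCD62L+. Ero1l is the oxidase that recharges the disulfide isomerases (chr14:45283087-45318771, minus strand). Its level was higher in each of the 3 cocktail populations than in IL-2, and lowest in naive. P4hb was at 86.1, 85.6 and 85.5 FPKM in the naive libraries, 173, 176 and 175 in IL-2, 246, 248 and 251 in cocktail CD44+CD62L-, 248, 249 and 249 in cocktail CD44+CD62L+ and 217, 216 and 221 in cocktail CD44loCD62L+. P4hb is the main disulfide isomerase and a subunit of prolyl hydroxylase, and it had the same grouping, with cocktail CD44+CD62L- and CD44+CD62L+ overlapping. Against naive, Ero1l rose by 1.499 ± 0.022 in IL-2, 2.09 ± 0.022 in cocktail CD44+CD62L-, 1.87 ± 0.022 in cocktail CD44+CD62L+ and 1.87 ± 0.022 in cocktail CD44loCD62L+.

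P4hb rose against naive by 1.02 ± 0.0096, 1.52 ± 0.0096, 1.53 ± 0.0096 and 1.34 ± 0.0096 in the same order of populations. These contrasts share the naive libraries. The prolyl isomerase Fkbp2 rose in all of them too, by 1.80 ± 0.026, 1.51 ± 0.026, 1.64 ± 0.026 and 1.01 ± 0.026, the last of which was under 2-fold with a pseudocount of 5 FPKM (0.89) and without cocktail CD44loCD62L+ replicate 3 (0.999). The cyclophilin Ppib and the isomerase Pdia4 differed less, with means of 119.7 to 189.9 and 42.8 to 67.4 FPKM over the 5 populations.

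The translocon genes were higher in every cultured population than in naive cells. Sec61b was at 219, 223 and 224 FPKM in the naive libraries, 427, 433 and 418 in IL-2, 336, 339 and 340.4 in cocktail CD44+CD62L-, 317, 324 and 315 in cocktail CD44+CD62L+ and 294, 282 and 289 in cocktail CD44loCD62L+. Sec61b is the beta subunit of the channel, and its libraries did not overlap between any of the populations. Ssr2 was at 62.9, 64.4 and 63.2 FPKM in the naive libraries, 141, 139 and 140.3 in IL-2, 106, 106 and 106 in cocktail CD44+CD62L-, 108, 103 and 107 in cocktail CD44+CD62L+ and 88.9, 88.4 and 90.2 in cocktail CD44loCD62L+. Ssr2 belongs to the translocon-associated protein complex, and naive was again lowest. In IL-2 against naive, Ssr1 and Ssr2 of that complex rose by 1.06 ± 0.018 and 1.13 ± 0.015. Sec61a1, Sec61b and Ssr3 were 0.74, 0.93 and 0.68 on the log2 scale, with adjusted p under 0.05 and under 2-fold. Ssr3 alone of the 5 was highest in cocktail CD44+CD62L-, at 106 ± 2.4 FPKM.

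The degradation genes did not share these differences. None of the 6 tested passed the limma test with 2-fold in IL-2 against naive, although all 6 had an unadjusted p under 0.05, as had 91.9% of all genes tested, and the median was -0.14. Herpud1 was at 45.7, 46.5 and 46.5 FPKM in the naive libraries, 35.6, 34.7 and 34.2 in IL-2, 42.3, 42.1 and 40.5 in cocktail CD44+CD62L-, 42.3, 42.1 and 42.1 in cocktail CD44+CD62L+ and 40.5, 39.99 and 39.9 in cocktail CD44loCD62L+. Herpud1 assembles the retrotranslocation complex, and it was highest in naive and lowest in IL-2. Syvn1 was at 26.3, 25.0 and 25.6 FPKM in the naive libraries, 19.7, 19.6 and 20.4 in IL-2, 16.9, 17.0 and 16.3 in cocktail CD44+CD62L-, 17.9, 18.03 and 17.9 in cocktail CD44+CD62L+ and 18.4, 17.7 and 18.7 in cocktail CD44loCD62L+. Syvn1 is the ubiquitin ligase HRD1, and naive was again highest.

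In IL-2 against naive the log2 difference was -0.40 ± 0.018 for Herpud1 and -0.35 ± 0.025 for Syvn1. Sel1l, the partner of HRD1, had means of 14.1 to 15.3 FPKM, and 3 of its 4 pairs of neighbouring populations overlapped. Edem1, a mannosidase-like lectin that hands over glycoproteins, had means of 56.6 to 64.1, Derl1 of 40.2 to 43.8 and Derl2 of 13.8 to 16.5 FPKM, the latter pair being membrane proteins of the retrotranslocation channel. Summed over the 7 genes, the level was 208 ± 0.87 FPKM in naive and 183 ± 0.46 in IL-2, while the 9 chaperones summed to 526 ± 2.7 and 1108 ± 5.2 (SD, n = 3).

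Both transcription factors rose in every cultured population against naive. Xbp1 was at 20.7, 20.1 and 18.7 FPKM in the naive libraries, 93.1, 90.7 and 93.7 in IL-2, 59.7, 58.5 and 60.3 in cocktail CD44+CD62L-, 51.6, 50.3 and 51.5 in cocktail CD44+CD62L+ and 42.9, 43.9 and 43.3 in cocktail CD44loCD62L+. Xbp1 (chr11:5520659-5525893, plus strand) had the order of Hsp90b1, Sdf2l1 and Manf among the 9 chaperones, with no overlap between the 5 populations. Its log2 fold change against naive was 2.17 ± 0.029 (SE, n = 3 and 3, limma adjusted p = 6.8e-17) in IL-2, 1.54 ± 0.029 in cocktail CD44+CD62L-, 1.32 ± 0.029 in cocktail CD44+CD62L+ and 1.09 ± 0.029 in cocktail CD44loCD62L+, the last of which was under 2-fold with a pseudocount of 5 FPKM (0.96).

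Atf6 was at 2.00, 1.75 and 2.09 FPKM in the naive libraries, 6.30, 6.63 and 6.48 in IL-2, 7.10, 6.96 and 7.13 in cocktail CD44+CD62L-, 6.48, 6.45 and 6.58 in cocktail CD44+CD62L+ and 6.02, 6.36 and 6.14 in cocktail CD44loCD62L+. Atf6 was low and nearly level over the cultured populations, with naive apart. Against naive its log2 fold change was 1.34 ± 0.037, 1.45 ± 0.037, 1.35 ± 0.037 and 1.28 ± 0.037 in the same order of populations. Because the gene is low these values depend on the pseudocount, and with 5 FPKM all of them were under 1.

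Genes with and without the element shown above were counted in IL-2 against naive cells. Of the 8 tested members that carry it, 6 were at least 1.5-fold higher in IL-2 (Hspa5, Hsp90b1, Creld2, Calr, Canx and Pdia6), while Dnajc3 and Syvn1 were not. Of the 17 tested members with a window and no such element, 11 were at least 1.5-fold higher and 1 was lower. By the same measure 28.3% of all genes tested were higher and 25.3% lower. Of 28 other genes with the element, 5 were tested under the same symbol, and 0 of these were higher and 2 lower by limma at 1.5-fold. Ero1b was not matched, because the expression values list it as Ero1lb. That gene was tested, at -0.33 ± 0.037 in IL-2 against naive, and was not called at 1.5-fold. Among those 5 was Alg12, singled out after its value was seen, which lies head to head with Creld2 and has the same element in its window. It was at -0.19 in IL-2 against naive, where Creld2 was at 1.58. These counts are a description.

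The comparison that holds the CD44+CD62L- gate constant set cocktail cells against IL-2 cells. In it 0 of the 31 members rose and 1, Sdf2l1, fell, where 4.64% of all genes tested rose and 3.2% fell by limma. At 1.5-fold, 1 was higher and 7 were lower, against 11.2% and 10.8% of all genes. The median was -0.23, beside -0.01 for all genes, and 29 of the 31 had an unadjusted p under 0.05, as had 84.9% of all genes tested. As given above, the Sdf2l1 libraries were at 37.8 to 41.3 FPKM in cocktail and 97.1 to 99.5 in IL-2, a log2 fold change of -1.31 ± 0.042 (SE, n = 3 and 3, limma adjusted p = 3.5e-12).

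Lower in cocktail CD44+CD62L- by less than 2-fold were Pdia6 at -0.91 ± 0.020, Creld2 at -0.88 ± 0.034, Hyou1 at -0.75 ± 0.024 and Dnajb11 at -0.71 ± 0.022. Xbp1 was at -0.63 ± 0.029 and Calr at -0.60 ± 0.010. In the other direction Ero1l was at 0.59 ± 0.022 and P4hb at 0.50 ± 0.0096. Each had an adjusted p under 0.05 and no overlap between the libraries. In this gate 9479 of all 11242 genes tested had a limma adjusted p under 0.05, and 10.8% were lower at 1.5-fold. Of the 9 chaperones, 7 were lower and 2 higher in the cocktail cells at an unadjusted p under 0.05 in limma. By that measure 44.0% of all genes tested were lower and 40.9% higher. All 9 chaperones also had an adjusted p under 0.05, and 4 were lower at 1.5-fold. The 2 higher chaperones were Dnajc3, at means of 41.2 FPKM in cocktail and 34.2 in IL-2, and Dnajb9, at 6.74 and 5.996. Of the 31 members, Sdf2l1 alone was past 2-fold.

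**Figure D3:**
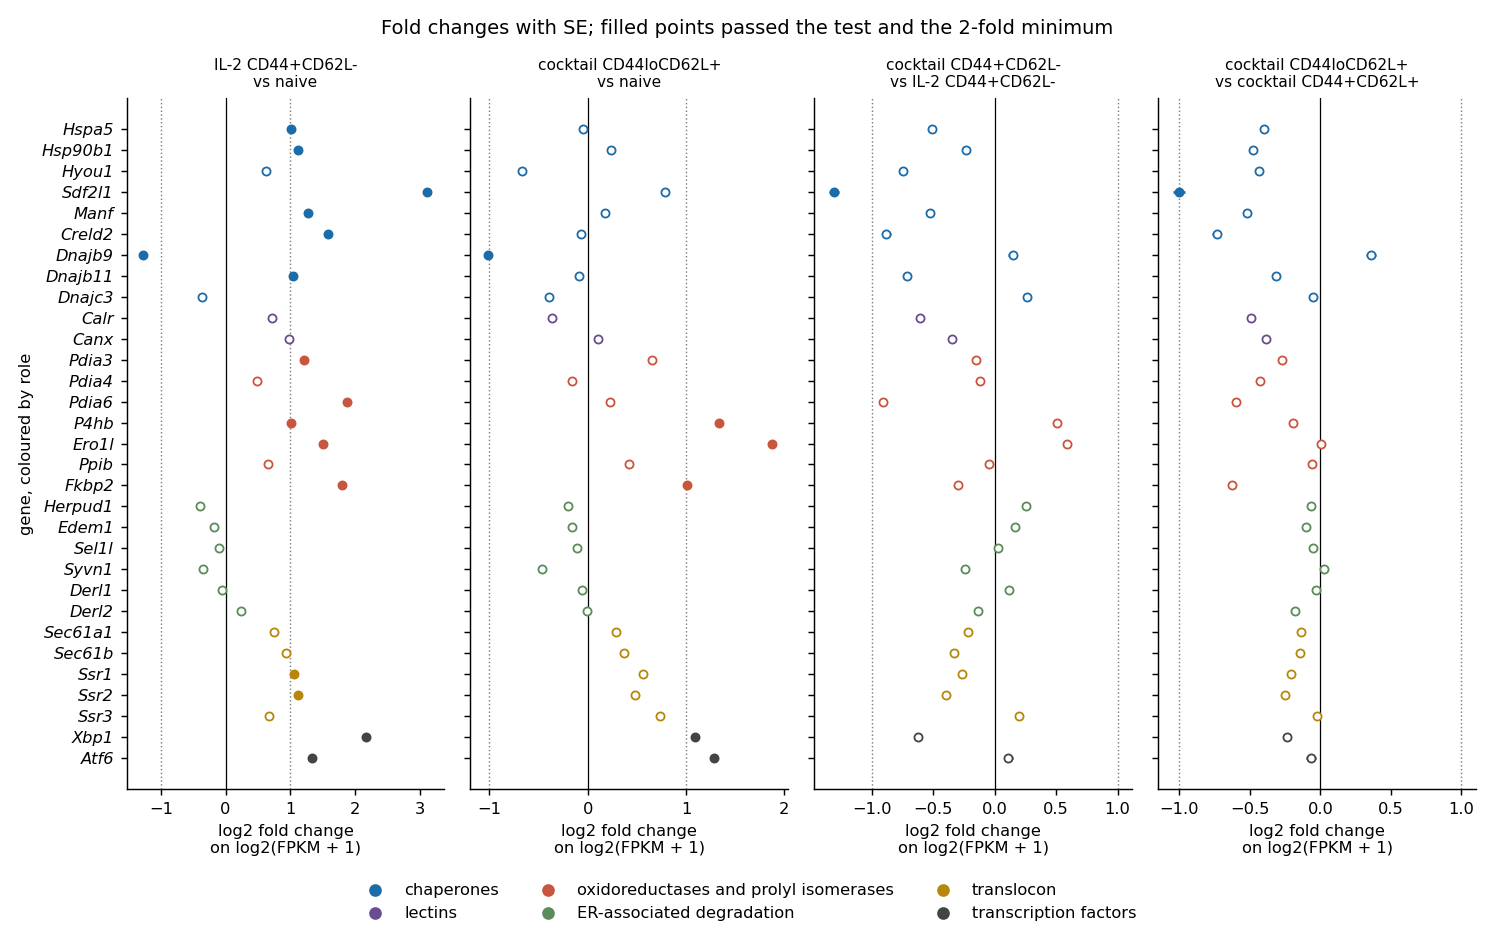
Each panel plots the log2 fold change of the 31 tested genes (rows, coloured by role) for 1 comparison, with its SE as a bar, mostly hidden by the point, and dotted lines at 2-fold. Filled points passed the test and the 2-fold minimum: 16 genes in IL-2 against naive, 6 in cocktail CD44loCD62L+ against naive, and Sdf2l1 in each of the other panels.

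Against naive, the cocktail populations had fewer members past 2-fold than the IL-2 population, with the same naive libraries in each contrast. In cocktail CD44+CD62L- 7 of 31 rose and 1 fell, where 13.9% and 8.59% of all genes did, and 17 were higher and 2 lower at 1.5-fold, where 23.8% and 20% were. In cocktail CD44+CD62L+ 6 rose and 1 fell, where 14.4% and 8.44% did, and 14 were higher and 1 lower at 1.5-fold, where 23.7% and 19.8% were. In cocktail CD44loCD62L+ 5 rose and 1 fell, where 11.6% and 6.11% did, and 8 were higher and 2 lower at 1.5-fold, where 19.9% and 16.1% were. The medians were 0.61, 0.49 and 0.17.

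The genes that rose in cocktail CD44+CD62L- were Ero1l, P4hb, Fkbp2, Xbp1 and Atf6, with the values above, Sdf2l1 at 1.81 ± 0.042 and Pdia3 at 1.06 ± 0.013. Pdia6 was at 0.98 and Hsp90b1 at 0.88, under 2-fold. Quantile normalization took Pdia3 under 2-fold in this contrast (0.875). Pdia6 passed 2-fold with median-ratio scaling (1.02) and without naive replicate 2 (1.01). In cocktail CD44+CD62L+ the same genes other than Pdia3 rose, with Sdf2l1 at 1.79 ± 0.042 and Pdia3 at 0.92. In cocktail CD44loCD62L+ the risen genes were Ero1l, P4hb, Atf6, Xbp1 and Fkbp2, none of them a chaperone, and Sdf2l1 was at 0.78 ± 0.042.

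Dnajb9 fell in each of these contrasts, by 1.12, 1.37 and 1.01 on the log2 scale. With a pseudocount of 5 FPKM all of these were under 2-fold (-0.83, -0.99 and -0.75), as was IL-2 against naive (-0.92). The call in cocktail CD44loCD62L+ against naive was also lost with median-ratio scaling (-0.95) and without naive replicate 3 or cocktail CD44loCD62L+ replicate 2 (-0.993 and -0.997). Hyou1 at -0.66 ± 0.024, Syvn1 at -0.47 ± 0.025, Dnajc3 at -0.39 ± 0.012 and Calr at -0.36 ± 0.010 were below naive in cocktail CD44loCD62L+ with less than 2-fold. Summed over the 9 chaperones, cocktail CD44loCD62L+ had 530.1 ± 1.8 FPKM and naive 526 ± 2.7, while over the oxidoreductases and isomerases the sums were 799 ± 1.3 and 477 ± 2.8 (SD, n = 3).

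Within the cocktail culture, the CD62L gate was compared between CD44+ cells. By limma, 0 of the 31 members rose and 0 fell in CD44+CD62L+ against CD44+CD62L-, where 0.0356% and 0.0801% of all genes did. At an unadjusted p under 0.05 were 23 of the 31, 3 higher and 20 lower, against 27.2% and 27.3% of all genes tested. Of the 31, 0 reached 1.5-fold in either direction, where 0.294% of all genes were higher and 0.338% lower. The log2 differences ran from -0.24 to 0.13, with a median of -0.09. The libraries did not overlap for 4 members that were higher and 20 that were lower, against 27.7% and 28% of all genes.

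The CD44 gate was compared between CD62L+ cells. In CD44loCD62L+ against CD44+CD62L+ 0 of 31 rose and 1 fell by limma, where 0.418% and 2.26% of all genes did, and 0 were higher and 4 lower at 1.5-fold, where 2.55% and 6.11% were. The gene that fell was Sdf2l1, at -1.005 ± 0.042 (SE, n = 3 and 3, limma adjusted p = 1.2e-10). This call sat on the 2-fold minimum: it was lost with a pseudocount of 5 FPKM (-0.88), with median-ratio scaling and with quantile normalization, and without CD44+CD62L+ replicate 3 (-0.98) or CD44loCD62L+ replicate 2 or 3 (-0.99 each).

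Under 2-fold in that comparison were Creld2 at -0.73 ± 0.034, Fkbp2 at -0.63 ± 0.026, Pdia6 at -0.60 ± 0.020, Manf at -0.52 ± 0.021, Calr at -0.49 ± 0.010 and Hsp90b1 at -0.48 ± 0.0083. Dnajb9 was the one named member in the other direction, at 0.36 ± 0.036. The libraries did not overlap for 26 members that were lower and 1 that was higher, against 38.4% and 37.7% of all genes. The median was -0.21.

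The rest of the pathway was read from lists of genes that are not members. Counts in IL-2 against naive are to be read against the 17.6% of all genes tested that rose and the 13.7% that fell. Among 7 sensors and activating proteases, 1 rose and 0 fell in IL-2 against naive, with a median of -0.21. The gene that rose was Eif2ak3, which encodes PERK, at 12.2 FPKM in naive and 40.05 in IL-2 (log2 fold change 1.63 ± 0.021). In cocktail CD44+CD62L- against IL-2 it was at -0.85 ± 0.021. Creb3 and Mbtps1, an ER-anchored factor and the protease that cuts ATF6, were at -0.45 and -0.34 in IL-2 against naive.

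Of 12 tested genes downstream of PERK and ATF4, 4 rose and 1 fell in IL-2 against naive, with a median of 0.80. Asns, asparagine synthetase, was at 0.113 FPKM in naive, 25.3 in IL-2 and 42.2 in cocktail CD44+CD62L-. Trib3, a pseudokinase induced by ATF4, was at 1.13, 6.05 and 13.3. Ppp1r15a, which encodes the phosphatase subunit GADD34, went the other way and fell by 1.42 on the log2 scale.

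In cocktail CD44+CD62L- against IL-2, 3 of these 12 rose and 0 fell, where 4.64% and 3.2% of all genes did, with a median of 0.04. Among them were Ddit3, which encodes CHOP, at 1.63 ± 0.048 and Trib3 at 1.03 ± 0.063. Ddit3 was at 17.6 FPKM in naive, 10.6 in IL-2 and 34.9, 35.4 and 40.4 in the cocktail populations. So CHOP mRNA was lowest in the population in which most ER chaperones were highest. In CD44loCD62L+ against CD44+CD62L+ 0 rose or fell and 5 were at least 1.5-fold lower, where 6.11% of all genes were, and 11 of 12 had an unadjusted p under 0.05, as had 75.2% of all genes tested.

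Of 18 genes of the translocon, the signal recognition particle and signal peptidase, 2 rose and 0 fell in IL-2 against naive, where 17.6% of all genes rose, with a median of 0.59. They were Sec61g, the gamma subunit of the channel, at 1.45 ± 0.018 and the signal peptidase subunit Sec11c at 1.03 ± 0.013. Of 16 N-glycosylation genes 4 rose and 0 fell, with a median of 0.74. Dpagt1, which starts the lipid-linked glycan, was at 1.49 ± 0.029 and the oligosaccharyltransferase subunit Krtcap2 at 1.41 ± 0.023. In cocktail CD44+CD62L- against IL-2 0 of both lists rose or fell, and 16 of 18 and 15 of 16 had an unadjusted p under 0.05 in limma, as had 84.9% of all genes tested.

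**Figure D4:**
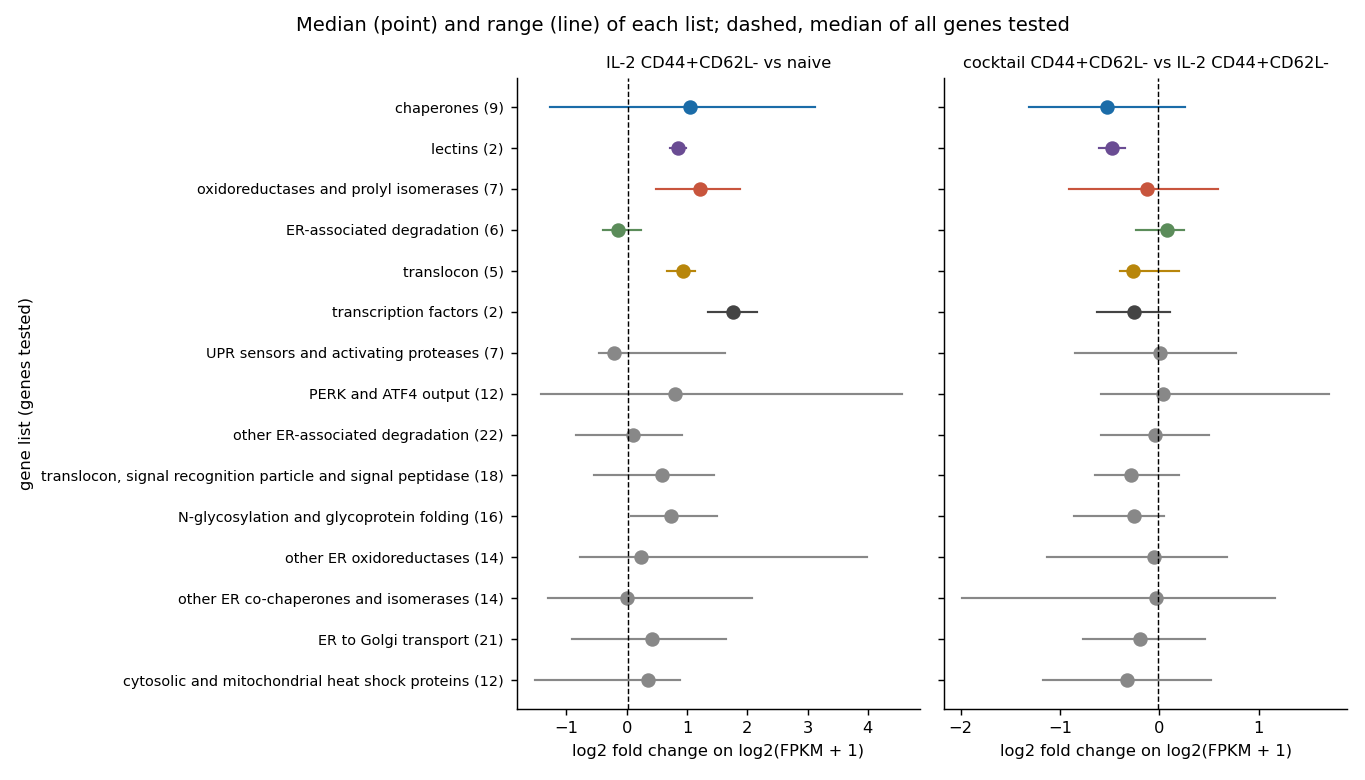
Points are the median and lines the range of log2 fold changes over the tested genes of each list (number in brackets), for IL-2 against naive and for cocktail against IL-2 in the CD44+CD62L- gate, with the median of all genes dashed. Against naive the points of the chaperone, oxidoreductase, translocon and transcription factor members lie near or above 1, and those of both degradation lists lie near 0.

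The other oxidoreductases included the gene with the widest change of the ER lists apart from Asns in IL-2 against naive. Prdx4, an ER peroxiredoxin that passes oxidizing power to disulfide isomerases, was at 3.01 ± 0.46 FPKM (SD, n = 3) in naive, 62.0 in IL-2, 27.9 in cocktail CD44+CD62L-, 27.1 in CD44+CD62L+ and 16.3 in CD44loCD62L+. That is the order of Xbp1 and Pdia6. It rose by 3.98 ± 0.061 in IL-2 against naive and fell by 1.13 in cocktail CD44+CD62L- against IL-2. Of the 14 genes in that list 2 rose and 0 fell in IL-2 against naive, with a median of 0.24.

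Of 14 other ER co-chaperones and isomerases 2 rose and 2 fell in IL-2 against naive, with a median of 0.01. Cnpy2 rose by 1.21 ± 0.037, while the isomerase Ppic and the disulfide reductase Dnajc10 were at -1.31 ± 0.058 and -1.06 ± 0.032. Dnajc10 was higher again in cocktail CD44+CD62L- against IL-2, at 1.16 ± 0.032. Of 21 genes of ER to Golgi transport 5 rose and 0 fell in IL-2 against naive, with a median of 0.43, among them the COPII coat gene Sec24d at 1.64 ± 0.038 and the GTPase Sar1b at 1.48 ± 0.034.

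Of 22 further genes of ER-associated degradation 0 rose or fell in IL-2 against naive, with a median of 0.10, and 20 had an unadjusted p under 0.05 in limma, as had 91.9% of all genes tested. Nploc4, a cofactor of the p97 segregase, was at 0.91 ± 0.017 and Herpud2, a relative of Herpud1, at -0.84 ± 0.027. Each of the other comparisons also had 0 of the 22 past 2-fold, with 10 to 21 at an unadjusted p under 0.05, against 54.5% to 90.9% of all genes tested.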

How the data were processed

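Gene expression was measured by RNA-seq in 15 libraries, 3 for each of 5 populations. Per the submitters' processing notes, TopHat2 2.0.9, Cuffdiff 2.1.1 and the build mm10 were used, with settings and annotation not stated in those notes. The FPKM values are those the authors deposited, 1 column per library. Depth is unknown: for 3300 low genes, 67.2% of 20181 ratios between libraries were whole to a tolerance of 0.05 (10% by chance), and whole reads were not recovered for all genes. Of all entries, 6039 were at 0 throughout, among them Eef1a1, so a 0 can be a failed estimate. No libraries held identical values.

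Values were taken to log2(FPKM + 1) and genes with a population mean of at least 1 FPKM were kept. For 7 comparisons, limma 3.58.1 (R 4.3.3; lmFit, then eBayes with trend) was run on the 15 libraries together, with a term for population and no other. The adjusted p is from limma throughout. An exact two-sided permutation test of 3 against 3 libraries cannot go below 0.1. The fit was tested on simulated data. Members and lists were chosen with earlier results of these data known. Fold changes are printed for members with at least 5 FPKM, no overlap between libraries and a log2 change of at least 0.3 (all called, and of the others up to 6 in each direction), and for up to 2 pathway genes in each direction per list. The alternatives tried were a pseudocount of 0.1 or 5, a filter of 5 FPKM or none, median-ratio scaling, quantile normalization, a replicate block, a fit to the 6 libraries compared, a fold of 1.5 and leaving out each library. Gene spans are from GENCODE on GRCm38, the assembly that mm10 names, and promoter sequences from RefSeq on GRCm38.p6. Python 3.11.15 with matplotlib 3.10.9 drew the figures.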

Additional observations from a re-analysis of the deposited data

How the results depend on the processing

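Counts of members called past 2-fold are given here as the sum of both directions. In IL-2 against naive the count of 16 was 10 with a pseudocount of 5 FPKM and 10 with quantile normalization. In cocktail CD44loCD62L+ against naive the count of 6 was 2 with a pseudocount of 5. In CD44loCD62L+ against CD44+CD62L+ the count of 1 was 0 with a pseudocount of 5, with median-ratio scaling and with quantile normalization. With a fold minimum of 1.5 the counts were 8 in cocktail CD44+CD62L- against IL-2, 19, 15 and 10 in cocktail CD44+CD62L-, CD44+CD62L+ and CD44loCD62L+ against naive, and 4 in CD44loCD62L+ against CD44+CD62L+, by construction of a lower threshold. Leaving out each library in turn gave 16 to 16 in IL-2 against naive, 8 to 9, 7 to 7 and 5 to 6 in the cocktail populations against naive, 1 to 1 in cocktail against IL-2, 0 to 0 for the CD62L gate and 0 to 1 for the CD44 gate. No fold change of a named member reversed under these alternatives. Quantile normalization moved the median of all genes to at most -0.11, in cocktail CD44+CD62L+ against naive. Except where a value above shows it, the cause was not tested.

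The replicate numbers did not pair the libraries: correlations of deviations between same-numbered libraries ran from -0.24 to 0.18, and 2 of 30 were over 0.1. With the replicate block the counts were 16 in IL-2 against naive, 8, 7 and 6 in the cocktail populations against naive, 1 in cocktail against IL-2, 0 for the CD62L gate and 1 for the CD44 gate, as without it. Technical replicates and FPKM without read counts limit what the small standard errors mean, and low genes such as Atf6 and Dnajb9 depend most on the pseudocount.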

Other observations

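The cytosolic and mitochondrial heat shock genes differed among themselves in direction. Of 12 tested, 0 rose and 4 fell in IL-2 against naive by limma, where 17.6% and 13.7% of all genes did, although the median was 0.36, so the median and the called genes differ in direction. At 1.5-fold 4 were higher and 4 lower, against 28.3% and 25.3% of all genes. Of all 11242 genes tested, the libraries did not overlap for 5271 that were higher and 5036 that were lower. Among the 12, they did not overlap for 7 that were higher and 5 that were lower. Among the higher ones were Hsp90aa1, the inducible Hsp90, at 0.89 ± 0.012 and Hspd1, the mitochondrial Hsp60, at 0.84 ± 0.013, both under 2-fold. Some had the order of an ER chaperone: Hsp90ab1, the constitutive Hsp90, that of Hsp90b1 and Xbp1, from 1134 FPKM in IL-2 to 794 in naive, and Hspa9, the mitochondrial Hsp70, that of Hspa5, from 143 in IL-2 to 84.3 in cocktail CD44loCD62L+. Dnajb1, an Hsp40, was at 100.6 FPKM in naive and 34.4 in IL-2, and Hsph1, an Hsp110, at 118 and 41.8. They fell by 1.52 and 1.48 on the log2 scale. Hsp90aa1 was highest in IL-2 at 441 FPKM and fell by 1.17 in cocktail CD44+CD62L- against IL-2. In that comparison 0 of the 12 rose and 1 fell, where 4.64% and 3.2% of all genes did. In cocktail CD44loCD62L+ against naive 0 rose and 3 fell, where 11.6% and 6.11% did, with Hsph1 at -2.67 ± 0.018 and Dnajb1 at -1.97 ± 0.018.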
